A study of Mus musculus with 4 samples.

Results

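Non-classical monocytes, also called patrolling monocytes, were examined in the immune cells of neonatal mouse hearts, and 1874 of 23961 kept cells met the rule for them. The rule asked for at least 500 UMIs (unique molecular identifiers, each standing for 1 captured RNA molecule), at least 200 genes and at most 10% mitochondrial UMIs. It then asked for at least 3 UMIs of the genes Ace, Treml4, Adgre4 and Cd300e in sum. Cells with 10 or more UMIs of the complement genes C1qa, C1qb and C1qc per 10000 were left out, as were cells with more than 1 UMI of Cxcl9, of the neutrophil genes Retnlg and Cxcr2, or of the lymphoid genes Cd3d, Cd3e, Cd3g, Cd79a and Cd79b. The levels of these genes therefore describe how the cells were chosen and are not results.

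The study profiled 4 libraries of sorted CD45+ cells, the surface protein that marks leukocytes, each from C57BL/6 mouse hearts with the atria removed. The mice were operated on at postnatal day 2, and their hearts were collected 7 days after that. KO_MI denotes hearts of mice with a homozygous deletion of PD1 (PD1 KO, -/-) after myocardial infarction, and Het_MI denotes hearts of mice with a heterozygous deletion (PD1 Het, +/-) after infarction. KO_sham and Het_sham denote hearts of the same genotypes after sham surgery. Every group thus carried at least 1 deleted PD1 allele, and no wild-type hearts were analysed here. The labels do not say whether the deletion acts in all cells, which part of the gene it removes, or how many hearts each library pools. Each group is 1 library, so there is no replicate check, no p-value is given, and every interval below covers counting error alone at the 95% level.

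Monocytes are made in the bone marrow and circulate in blood. Classical monocytes carry the surface protein Ly6C and the chemokine receptor Ccr2 and enter inflamed tissue, where they can become macrophages. Non-classical monocytes carry little Ly6C and Ccr2, much of the integrin LFA-1 (its alpha chain is the product of Itgal) and of the fractalkine receptor Cx3cr1, and crawl along the inner wall of vessels. In mice they arise largely from classical monocytes, and they need the transcription factors Nr4a1 and Cebpb and Notch signals from the endothelium. PD-1, the product of Pdcd1, is an inhibitory receptor best known on T cells, and its ligands PD-L1 (Cd274) and PD-L2 (Pdcd1lg2) are made by myeloid and other cells.

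KO_MI held 379 of these cells, Het_MI 220, KO_sham 628 and Het_sham 647. Their summed UMIs numbered 2129706 in KO_MI, 1454704 in Het_MI, 3008624 in KO_sham and 3500770 in Het_sham, and these sums set the precision of every level. Levels are given as CPM: a gene's UMIs, summed over a class of cells within 1 library, per 1000000 UMIs of that sum. The median cell carried 4488 UMIs in KO_MI, 5146.5 in Het_MI, 4089.5 in KO_sham and 4488 in Het_sham, below the medians of 6559.5 to 8632 UMIs for all kept cells. The median mitochondrial share lay between 2.33% and 2.55%. The whole libraries held 6157 to 8379 barcodes and 52701847 to 72002420 UMIs. Any pair of libraries had 7 to 16 cell barcodes in common, of which 0 belonged to non-classical monocytes in both.

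The libraries differed in sex, which the labels do not give. Among non-classical monocytes, a UMI of a Y-linked gene was found in 0 of 379 cells of KO_MI, which allows a share of up to 0.792%, against 129 of 220 in Het_MI, 262 of 628 in KO_sham and 245 of 647 in Het_sham. Xist, the RNA of the inactive X chromosome, stood at 765 CPM in KO_MI, 124 CPM in Het_MI, 272 CPM in KO_sham and 216 CPM in Het_sham. Genotype and sex therefore cannot be told apart for KO_MI in all cells, and values over cells that carry Xist but lack Y-linked UMIs (324 in KO_MI, 30 in Het_MI, 134 in KO_sham and 132 in Het_sham) stand beside the main results.

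Of the genes that chose the cells, Ace, Treml4 and Adgre4 lay within 1.5-fold over the 4 libraries, while Cd300e was lower in the infarcted ones. Ace, which encodes angiotensin-converting enzyme, had 419.8 CPM in KO_MI, 394 CPM in Het_MI, 459 CPM in KO_sham and 410.5 CPM in Het_sham. The other members of the rule were Treml4, an innate immune receptor gene, at 373 to 496 CPM, Adgre4, an adhesion receptor gene, at 393 to 496 CPM, and Cd300e, an activating receptor gene, at 104 CPM in KO_MI, 105 CPM in Het_MI, 173 CPM in KO_sham and 169.7 CPM in Het_sham. In the GRCm38 annotation Ace lies on chromosome 11 at 105967945 to 105989964 on the plus strand, and Cd300e on chromosome 11 at 115051917 to 115062177 on the minus strand. Adgre4 lies on chromosome 17 at 55749984 to 55853662 and Treml4 on chromosome 17 at 48264295 to 48275360, both on the plus strand.

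Genes that the rule did not use carried the same identity. Itgal stood at 914 CPM in KO_MI, 894 CPM in Het_MI, 973 CPM in KO_sham and 886 CPM in Het_sham, and Ear2, an eosinophil-type ribonuclease gene, at 429 CPM in KO_MI, 423 CPM in Het_MI, 522 CPM in KO_sham and 534 CPM in Het_sham. Eno3, an enolase gene, had 368 CPM in KO_MI, 290.1 CPM in Het_MI, 379.9 CPM in KO_sham and 431 CPM in Het_sham. All of these lay far above the levels in classical monocytes, defined here by at least 3 Ly6c2 UMIs and 2 UMIs of Ccr2 and Vcan, which were 259 to 305 CPM for Itgal, 58.7 to 70.5 CPM for Ear2 and 1.08 to 5.91 CPM for Eno3. Classical monocytes were also limited to at most 1 UMI of the rule's genes in sum and met further limits on genes of other lineages. They were thus chosen to lack the rule's genes, which may widen the contrast for other patrolling genes. Spn (CD43) ranged over 163 to 191 CPM, Fcgr4, an activating Fc receptor gene, over 239 to 359 CPM, and the transcription factor gene Pou2f2 over 543 to 697 CPM, against 10 to 24.9 CPM, 7.16 to 18.6 CPM and 70.1 to 106 CPM in classical monocytes. Cx3cr1 had 159 to 224 CPM, above classical monocytes (43.1 to 65.9 CPM) and below the cardiac macrophages of the same libraries (543 to 653 CPM). Macrophages were defined by at least 30 C1q UMIs per 10000, with the same limit on the rule's genes.

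Set against all other kept cells within each library, the 20 highest genes were led by the rule's own Cd300e, Ace, Adgre4 and Treml4, with Ear2 among them, and went on with Eno3, Slc12a2, Nxpe4, Ly6i, Zfyve9, Grk3, Ceacam1, Gpr141, Dusp16, Smpdl3b, Itgal, Fpr2, Spn, Cdc42ep2 and Trem3. Set against classical monocytes, the genes farthest above were Cd300e, Ace, Eno3, Slc12a2, Treml4, Cd81, Lilra5, Cd36, Fcgr4 and Sparc, the last a matrix protein gene of vascular and connective tissue cells. Among the genes farthest below were Ly6c2, F13a1 (a clotting factor subunit), Uck2, Ccr1, Gas7, Mmp8, Wfdc17, F5 and Iqgap2. Ly6c2, which chose the classical monocytes, had 64 to 208 CPM in non-classical and 1304 to 1749.8 CPM in classical monocytes. Of these genes Cd300e, Ace and Treml4 belong to the rule and Ly6c2 chose the classical monocytes, so that their part of the contrast was fixed by selection. By the genes outside the rule, among them Itgal, Ear2, Eno3, Spn and Fcgr4, the markers match the label of the cells.

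**Figure D1:**
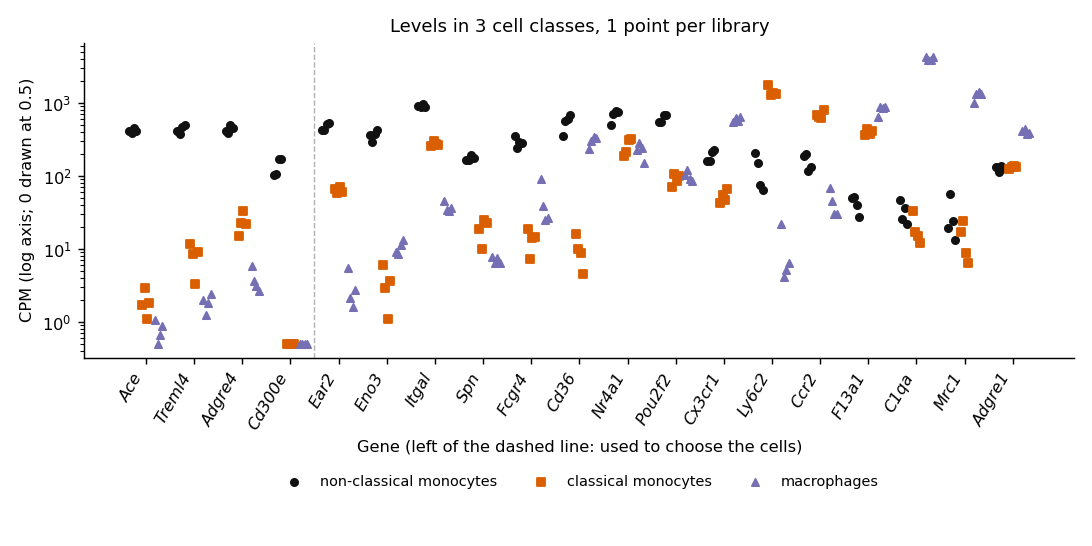
Levels of 19 genes (CPM, log axis, values of 0 drawn at 0.5) in non-classical monocytes, classical monocytes and macrophages, with 1 point per library; the 4 genes left of the dashed line chose the non-classical monocytes. Outside those 4, Ear2, Eno3, Itgal, Spn and Fcgr4 sit highest in the non-classical monocytes of every library, while Ly6c2 and Ccr2, which defined the classical monocytes, and C1qa, which defined the macrophages, are high there by selection.

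The limit of 3 UMIs fell within a graded range. The 212 cells with exactly 3 UMIs of the rule's genes had 625 CPM of Itgal, 353 CPM of Ear2 and 198 CPM of Eno3. The 247 cells that met the rest of the rule with 2 UMIs had 488 CPM of Itgal, 237 CPM of Ear2 and 98.4 CPM of Eno3. Members with 10 or more UMIs, of which there were 529, reached 1000 CPM of Itgal, 555 CPM of Ear2 and 447 CPM of Eno3. The 2325 cells that met the rest of the rule with 0 UMIs had 142, 29.1 and 26.2 CPM. These cells were not chosen by any myeloid gene and may be of mixed types. Over the libraries summed, the cells just outside the limit thus lay between the members and the cells without these transcripts for all 3 genes. In Het_MI, however, the 29 cells with 2 UMIs had 16.3 CPM of Eno3 and those with 0 UMIs 21.7 CPM.

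The exclusions of the rule took away a different part of each library. At least 3 UMIs of the 4 genes were found in 820 kept cells of KO_MI, 466 of Het_MI, 1038 of KO_sham and 905 of Het_sham, and 46.2% of these stayed in KO_MI, 47.2% in Het_MI, 60.5% in KO_sham and 71.5% in Het_sham. The C1q limit alone applied to 366 cells in KO_MI, 192 in Het_MI, 297 in KO_sham and 136 in Het_sham. The counts of members below therefore hold for cells that pass those limits, and the limits removed a larger part after infarction.

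Among the 1874 members, 48 also carried genes of another lineage or few myeloid transcripts: 14 in KO_MI (3.69%), 12 in Het_MI (5.45%), 12 in KO_sham (1.91%) and 10 in Het_sham (1.55%). By overlapping criteria 22 of them had endothelial genes, 14 fibroblast genes, 6 natural killer genes and 5 neutrophil precursor genes, and 22 had few myeloid genes. Endothelial cells make Ace too. With these cells in, the summed level of the endothelial, fibroblast and cardiomyocyte list was 1143 CPM in KO_MI, 1473 CPM in Het_MI, 619 CPM in KO_sham and 1153 CPM in Het_sham, and without them it was 95.3, 213, 219 and 145 CPM in the same order. The criteria for these 48 cells were set after the data were seen, and the counts of genes in lists below are given with all members first and then over the 1826 cells left. The macrophage marker list summed to 1811 to 2395 CPM in members, against 33227 to 38651 CPM in macrophages. It includes C1qa, C1qb and C1qc, which were limited in members and chose the macrophages, so part of this contrast was fixed by selection. Retnlg and Cxcr2, which the rule limited in members, likewise belong to the neutrophil marker list. The neutrophil marker list summed to 1084 CPM in KO_MI, 2566 CPM in Het_MI, 1434 CPM in KO_sham and 1546 CPM in Het_sham in all members, and to 1195 CPM in KO_MI, 1158 CPM in Het_MI, 512 CPM in KO_sham and 683 CPM in Het_sham in the cells left, where both infarcted libraries stood above both sham libraries.

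Non-classical monocytes made up a smaller share of the kept immune cells after infarction in both genotypes. They were 5.34% (4.82% to 5.88%, exact Clopper-Pearson interval) of 7104 kept cells in KO_MI, 4.34% (3.79% to 4.93%) of 5074 in Het_MI, 9.80% (9.08% to 10.6%) of 6407 in KO_sham and 12.0% (11.2% to 12.9%) of 5376 in Het_sham. The share in Het_MI was 0.360 times that in Het_sham (0.308 to 0.420), and the share in KO_MI was 0.544 times that in KO_sham (0.478 to 0.619). After infarction KO_MI had 1.23 times the share of Het_MI (1.04 to 1.46), and after sham surgery KO_sham had 0.814 times the share of Het_sham (0.729 to 0.910). The intervals of the 4 shares did not overlap, except that those of KO_MI and Het_MI met between 4.82% and 4.93%. Before the exclusions, cells with at least 3 UMIs of the rule's genes were 11.54% of kept cells in KO_MI and 9.18% in Het_MI. They were 16.20% in KO_sham and 16.83% in Het_sham. On that basis the infarcted libraries still stood below the sham libraries, by a smaller factor. The sham libraries lay closer together, so the size of the genotype difference after sham surgery depended on the exclusions.

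Part of the difference depended on what the cells were counted against. Among the monocytes of both classes, with 170 classical monocytes in KO_MI, 85 in Het_MI, 118 in KO_sham and 129 in Het_sham, the non-classical share was 69.0% (65.0% to 72.9%) in KO_MI, 72.1% (66.7% to 77.1%) in Het_MI, 84.2% (81.4% to 86.7%) in KO_sham and 83.4% (80.6% to 85.9%) in Het_sham. On that basis the infarcted hearts still stood below the sham hearts, while the intervals of the 2 genotypes overlapped after either surgery. A share in a sorted suspension moves with every other cell type in it, so a lower share and an increase of the other leukocytes cannot be told apart.

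**Figure D2:**
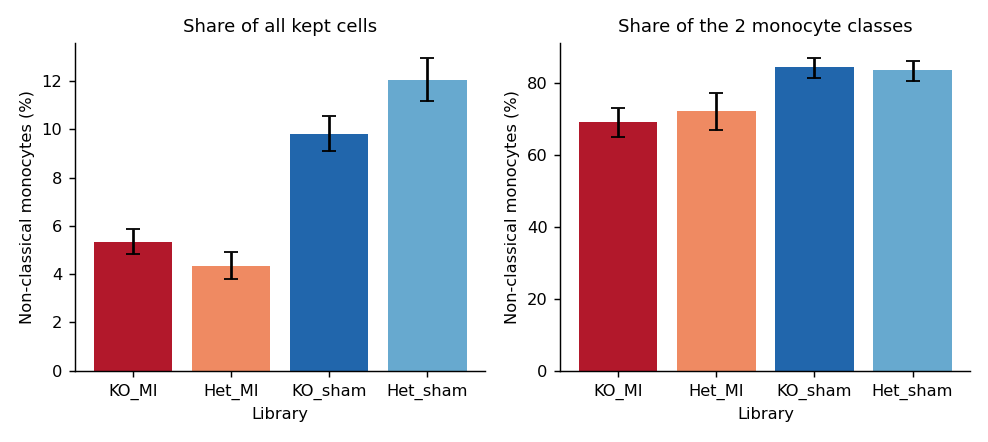
Non-classical monocytes as a percent of all kept cells (left) and of non-classical plus classical monocytes (right), 1 bar per library with the 95% exact counting interval. Both panels show lower bars for the infarcted libraries (5.34% and 4.34% of kept cells) than for the sham libraries (9.80% and 12.0%).

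The members ranged from cells without Ly6c2 to cells that still carried it together with other classical genes. No Ly6c2 UMI was found in 1571 of 1874 cells, 1 or 2 UMIs in 180 and 3 or more in 123. Fn1 (fibronectin) stood at 168 CPM in the cells without Ly6c2, 380 CPM in those with 1 or 2 UMIs and 809 CPM in those with 3 or more, and Ccr2 stood at 77.3, 274 and 476 CPM in the same order. Thbs1 (thrombospondin 1) likewise stood at 772, 1583 and 2241 CPM. The patrolling genes ran the other way: Cd36, a fatty acid scavenger receptor gene, had 678, 360 and 154 CPM, Nr4a1 had 775, 576 and 385 CPM and Fcgr4 had 342, 203 and 100 CPM. The median depth also ran with Ly6c2, at 4151, 6243 and 8988 UMIs per cell, so that a cell with 3 Ly6c2 UMIs was also a deeper cell, and the part of depth in this gradient was not tested.

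Cells at the Ly6c2 end were a larger part of the population after infarction. Cells with 3 or more Ly6c2 UMIs were 45 of 379 (11.9%) in KO_MI, 21 of 220 (9.55%) in Het_MI, 28 of 628 (4.46%) in KO_sham and 29 of 647 (4.48%) in Het_sham. Cells with no Ly6c2 UMI were 74.9% in KO_MI, 78.6% in Het_MI, 87.3% in KO_sham and 87.5% in Het_sham. When each cell was thinned to 2000 UMIs, a Ly6c2 UMI was found in 16.5% of members in KO_MI, 11.1% in Het_MI, 7.13% in KO_sham and 5.98% in Het_sham, so the order of the libraries held at equal depth. The thinned share in macrophages, which should lack the gene, was 1.80% in KO_MI, 0.367% in Het_MI, 0.470% in KO_sham and 0.403% in Het_sham. The thinning left out 9, 3, 25 and 12 members in the same order.

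**Figure D3:**
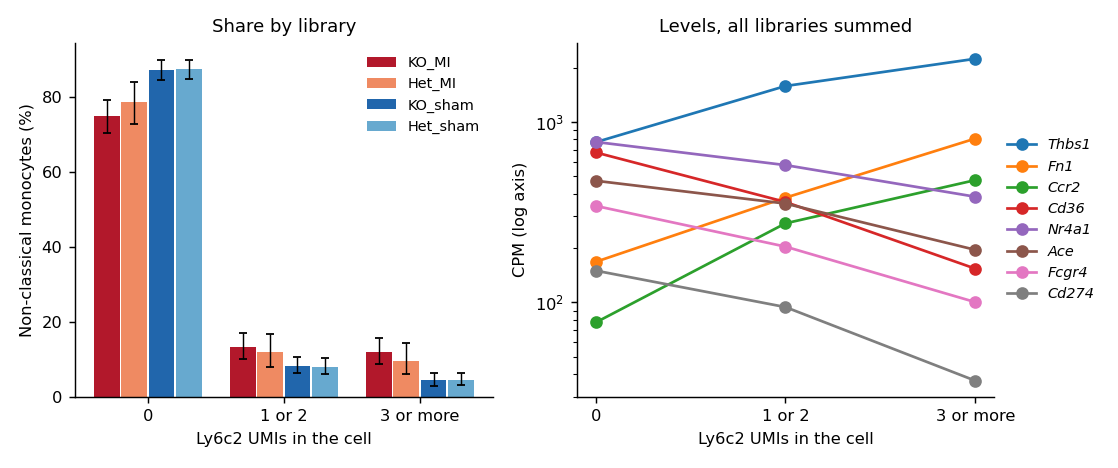
Left, percent of non-classical monocytes with 0, 1 or 2, and 3 or more Ly6c2 UMIs in each library, with 95% exact counting intervals; right, levels of 8 genes (CPM, log axis) in those 3 classes summed over the libraries. Cells with 3 or more Ly6c2 UMIs are 11.9% and 9.55% of the infarcted libraries and 4.46% and 4.48% of the sham libraries, and Thbs1, Fn1 and Ccr2 climb along the axis while Cd36, Nr4a1, Ace, Fcgr4 and Cd274 descend. Ace belongs to the rule that chose the cells, so its levels were set in part by selection.

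A second, small group carried class II antigen presentation genes. Cells with at least 20 class II UMIs per 10000 numbered 11 in KO_MI, 2 in Het_MI, 13 in KO_sham and 8 in Het_sham, and they held 70.8%, 78.8%, 81.5% and 64.5% of all class II UMIs of their library's members. Levels of H2-Aa, H2-Ab1, H2-Eb1 and Cd74 over all members therefore rest on few cells, and 3, 0, 7 and 13 cells lay between 15 and 25 per 10000, close to that limit.

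The first comparison asked how non-classical monocytes of infarcted hearts differed between the genotypes, KO_MI over Het_MI. Many genes of class I antigen presentation and of interferon responses were higher in KO_MI (10 of 17, 8 of 15 and 6 of 13 measured genes of the 3 lists below), while Ptgs2, Gdf15, Areg and Id3 were lower. Gbp2, a guanylate-binding protein induced by interferon-gamma, had 71.8 CPM in KO_MI, 13.7 CPM in Het_MI, 22.9 CPM in KO_sham and 24.3 CPM in Het_sham. KO_MI was thus the highest library and Het_MI the lowest, with a log2 ratio of Het_MI over Het_sham of -0.82. The log2 ratio of KO_MI over Het_MI for Gbp2 was 2.39 (1.71 to 3.14) in all members and 2.24 (1.56 to 2.99) in the cells left. Thinned to 2000 UMIs, a Gbp2 UMI was found in 11.4% of members in KO_MI, 2.30% in Het_MI, 3.48% in KO_sham and 3.78% in Het_sham, against 4.12%, 4.71%, 0.847% and 2.33% of classical monocytes in the same order.

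Zbp1, a nucleic acid sensor gene, had 133 CPM in KO_MI, 59.1 CPM in Het_MI, 63.5 CPM in KO_sham and 83.7 CPM in Het_sham, again with KO_MI above the other libraries. Its log2 ratio of KO_MI over Het_MI was 1.17 (0.82 to 1.54) in all members and 1.18 in the cells left. Ifi205, an interferon-activated gene of the AIM2-like receptor family, had 49.3 CPM in KO_MI, 15.1 CPM in Het_MI, 9.31 CPM in KO_sham and 12.6 CPM in Het_sham and a log2 ratio of 1.70 (1.03 to 2.44). Ifi27l2a, an abundant interferon-stimulated gene, had 1099 CPM in KO_MI, 530 CPM in Het_MI, 387 CPM in KO_sham and 475 CPM in Het_sham, with a log2 ratio of 1.05 (0.93 to 1.17). Each of these was highest in KO_MI among the 4 libraries. Irf1, an interferon regulatory factor gene, did not share the pattern, at 92.5 CPM in KO_MI and 109 CPM in Het_MI. Cxcl10, a chemokine gene, had 89.2 CPM in KO_MI and 50.9 CPM in Het_MI, but 1 cell held 21.6% of its UMIs in KO_MI and the log2 ratio was 0.81 with that cell and 0.47 without it.

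Of the 18 genes of the class I list, 17 had at least 30 UMIs over the 2 infarcted libraries, and 10 of these were at least 1.5-fold higher in KO_MI, 0 were lower by that much, and the median log2 ratio was 0.69. Over all genes with at least 30 UMIs, 4.4% were that much higher and 11.3% that much lower, with a median of -0.10. H2-K1, a classical class I heavy chain gene, had 1986 CPM in KO_MI, 1083 CPM in Het_MI, 1239 CPM in KO_sham and 1151 CPM in Het_sham, a log2 ratio of 0.88 (0.79 to 0.96). The second heavy chain gene H2-D1 and the light chain gene B2m stood closer together, with log2 ratios of 0.42 and 0.37. Tap1, a subunit of the peptide transporter, had 97.7 CPM in KO_MI, 46.1 CPM in Het_MI, 49.2 CPM in KO_sham and 47.7 CPM in Het_sham, a log2 ratio of 1.08 (0.68 to 1.504). Psmb8, a subunit of the immunoproteasome, had 425 CPM in KO_MI and 245 CPM in Het_MI, a log2 ratio of 0.80 (0.62 to 0.98).

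Among the class I genes outside the classical heavy chains, H2-Q7 had 152 CPM in KO_MI, 55.7 CPM in Het_MI, 62.2 CPM in KO_sham and 49.4 CPM in Het_sham and a log2 ratio of 1.45 (1.09 to 1.82), and H2-T22 had 73.7 CPM in KO_MI, 30.2 CPM in Het_MI, 29.9 CPM in KO_sham and 43.1 CPM in Het_sham and a log2 ratio of 1.29 (0.79 to 1.80). The H2-Q and H2-T genes are near copies of each other, so reads may have been shared between them or lost, and the split among them is uncertain. Thinned to 2000 UMIs, H2-Q7 was found in 25.9% of members in KO_MI, 12.0% in Het_MI, 12.1% in KO_sham and 9.61% in Het_sham, and in at most 1.18% of the classical monocytes of any library. In the cells left, 10 of 17 class I genes were again at least 1.5-fold higher in KO_MI, with a median of 0.73, where 4.85% of all genes were higher by that much and 9.38% lower, with a median of -0.08.

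The interferon-gamma list had 15 measured genes of 24, of which 8 were at least 1.5-fold higher in KO_MI and 1, Iigp1, lower, with a median log2 ratio of 0.60. Over the cells left 10 of 14 were higher and 0 lower, with a median of 0.80. Ly6a, which endothelial cells also make, was the gene that differed most between the 2 sets of cells: it had 60.1 CPM in KO_MI and 43.3 CPM in Het_MI in all members and 41.7 CPM in KO_MI and 5.68 CPM in Het_MI in the cells left. The type I interferon list had 13 measured genes of 26, of which 6 were higher and 0 lower, with a median of 0.53, and 6 of 13 in the cells left with a median of 0.56. Oasl2, an antiviral gene of that list, had 19.7 CPM in KO_MI, 6.19 CPM in Het_MI, 7.31 CPM in KO_sham and 8.57 CPM in Het_sham. Irf7, a transcription factor of the type I response, had 89.2 CPM in KO_MI and 58.4 CPM in Het_MI.

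The list medians of the classical monocytes and macrophages of the same libraries were above 0 as well. The median log2 ratio of KO_MI over Het_MI was 0.50 for the class I list, 0.68 for the interferon-gamma list and 0.14 for the type I list in classical monocytes, where the median of all genes was -0.060. In macrophages it was 0.64, 1.15 and 0.75 for the same lists, where the median of all genes was -0.10. No test of a difference between the classes was made. Over the cells with Xist and no Y-linked UMI, of which Het_MI had 30, the median was 0.39 for the class I list, 0.67 for the interferon-gamma list and 0.14 for the type I list, so sex moved beside the class I and type I medians and its part in them was not tested.

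Promoters of these genes were read for the letters that interferon-activated factors bind, since many members of both lists were higher together. The sequences come from RefSeq on build GRCm38.p6 and hold 250 bases before to 50 bases after each gene's start, written 5′ to 3′ along the gene. The interferon-stimulated response element was searched on both strands as GAAA, any 2 bases and GAAA again, which reads TTTC, any 2 bases and TTTC on the other strand. It is shown in capitals in 3 genes of the lists, Gbp2 at chr3:142620413-142620712 on the plus strand, H2-T22 at chr17:36042693-36042992 on the minus strand and Cxcl10 at chr5:92348840-92349139 on the minus strand, where it begins 59, 191 and 213 bases before the start. These 3 were chosen because they hold a match. Among such genes at least 1.5-fold higher in KO_MI, with at least 100 UMIs, they had the highest ratios.
Gbp2: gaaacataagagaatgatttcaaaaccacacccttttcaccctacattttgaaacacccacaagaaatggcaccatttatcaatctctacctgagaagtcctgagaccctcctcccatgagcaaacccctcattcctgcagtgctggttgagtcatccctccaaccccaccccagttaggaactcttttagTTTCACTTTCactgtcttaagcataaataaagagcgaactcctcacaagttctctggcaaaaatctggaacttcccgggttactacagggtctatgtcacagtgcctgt
H2-T22: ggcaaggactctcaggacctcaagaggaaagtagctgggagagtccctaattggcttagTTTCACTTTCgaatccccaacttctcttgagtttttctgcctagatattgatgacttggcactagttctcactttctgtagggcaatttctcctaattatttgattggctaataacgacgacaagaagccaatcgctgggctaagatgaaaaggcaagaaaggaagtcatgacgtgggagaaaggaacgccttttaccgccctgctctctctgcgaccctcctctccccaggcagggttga
Cxcl10: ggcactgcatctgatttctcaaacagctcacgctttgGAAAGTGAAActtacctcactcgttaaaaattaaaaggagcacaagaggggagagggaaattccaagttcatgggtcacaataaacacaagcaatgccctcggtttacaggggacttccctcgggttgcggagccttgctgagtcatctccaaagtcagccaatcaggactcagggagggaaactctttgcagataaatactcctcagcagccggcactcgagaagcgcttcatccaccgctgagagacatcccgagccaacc

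A match stood in 943 of 27025 promoters (3.49%), in 4 of 16 promoters of the class I list (25%) and in 10 of 16 of the interferon-gamma list (62.5%). Promoters were found for 32 of the 42 genes of the lists. Of the 26 of these that were measured, the response element stood in 6 of the 16 that were at least 1.5-fold higher in KO_MI (37.5%) and in 5 of the other 10 (50%). A match describes letters and no binding.

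Genes lower in KO_MI included products of prostaglandin, growth factor and stress pathways. Ptgs2, the inducible cyclooxygenase, had 38.5 CPM in KO_MI, 113 CPM in Het_MI, 47.5 CPM in KO_sham and 26.9 CPM in Het_sham, so Het_MI stood above the other libraries, and its log2 ratio of KO_MI over Het_MI was -1.55 (-1.95 to -1.16). Gdf15, a stress-induced cytokine, had 30.5 CPM in KO_MI, 83.9 CPM in Het_MI, 95.7 CPM in KO_sham and 42.6 CPM in Het_sham, with a log2 ratio of -1.46 (-1.92 to -1.01). Areg (amphiregulin, a ligand of the EGF receptor) had 18.3 CPM in KO_MI and 57.1 CPM in Het_MI, a log2 ratio of -1.64, but 41% of its UMIs in Het_MI lay in 1 cell and the ratio without that cell was -0.89. Id3, an inhibitor of basic helix-loop-helix factors, had 162 CPM in KO_MI, 349 CPM in Het_MI, 224 CPM in KO_sham and 194 CPM in Het_sham, with a log2 ratio of -1.10 (-1.30 to -0.90). Without the 48 cells the log2 ratios were -1.63 for Ptgs2, -1.67 for Gdf15 and -1.40 for Id3.

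The patrolling identity list held few genes past 1.5-fold. It includes the rule's own Ace, Treml4, Adgre4 and Cd300e, so its counts and medians were set in part by selection in every comparison. Of its 24 genes 1 was at least 1.5-fold higher in KO_MI (Gngt2) and 2 lower (Fabp4 and Cd36), against 11.3% of all genes lower, with a median of 0.01, and in the cells left 0 were higher and 2 lower with a median of -0.064. Cd36 had 349 CPM in KO_MI, 565 CPM in Het_MI, 608 CPM in KO_sham and 694 CPM in Het_sham, a log2 ratio of KO_MI over Het_MI of -0.70 (-0.84 to -0.55). Nr4a1, on which these cells depend, had 496 CPM in KO_MI, 719.7 CPM in Het_MI, 775 CPM in KO_sham and 764 CPM in Het_sham and a log2 ratio of -0.54 (-0.66 to -0.41), short of 1.5-fold in all members. Both were lowest in KO_MI. Nr4a1 is not in the identity list and belongs to the immediate early genes, which tissue digestion can induce. The median log2 ratio of that list was -0.26 in all members and -0.30 in the cells left. In the cells left 0 of its 17 measured genes were higher and 2 lower (Fosb and Nr4a1), where 4.85% of all genes were higher and 9.38% lower. The part of tissue digestion was not tested. Fcgr4 had 359 CPM in KO_MI, 239 CPM in Het_MI, 295 CPM in KO_sham and 284 CPM in Het_sham and a log2 ratio of 0.58 (0.40 to 0.77).

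Over all genes, 4.4% were at least 1.5-fold higher in KO_MI and 11.3% lower in all members, and 4.85% higher and 9.38% lower in the cells left. The inflammatory list had 1 of 26 genes higher in KO_MI and 4 lower (Ptgs2, Il6, Tnfaip3 and Nfkbiz) with a median of -0.25, counts not far from those shares. In the cells left 0 of 25 were higher and 6 lower with a median of -0.31. The growth and matrix list had 1 of 17 higher and 6 lower with a median of -0.35, and in the cells left 0 of 13 higher and 5 lower with a median of -0.48. The class II list had 1 of 7 genes higher and 0 lower with a median of 0.041, and in the cells left 5 of 7 higher with a median of 1.32, so its value rested on which cells were kept. The list of inhibitory receptors and checkpoint ligands had 0 of 21 past 1.5-fold in either direction in both sets of cells.

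By the rule for single genes, which asks for at least 100 UMIs and an interval wholly beyond 1.5-fold, 15 genes were higher in KO_MI and 17 lower. Among all genes with at least 50 UMIs, 198 of 6102 (3.24%) were at least 1.5-fold higher and 520 (8.52%) lower. The 10 highest were Gzma, Gbp2, Ly6i, H2-Q7, Plaat3, H2-T22, Adamdec1, Zbp1, Ms4a6b and Tap1, and the 10 lowest were Camp, H19, Tm4sf1, Stfa2l1, Areg, Ptgs2, Nfib, Gdf15, Id3 and Tent4b. Gzma, the granzyme of cytotoxic lymphocytes, stood at 66.2 CPM in KO_MI, 0 CPM in Het_MI, 2.66 CPM in KO_sham and 39.1 CPM in Het_sham, yet 95.7% of its UMIs in KO_MI lay in 1 cell and it stood at 2.08 CPM in the cells left of that library. Camp, H19 and Tm4sf1 had 113, 151 and 290.1 CPM in Het_MI with all members and 2.44, 0.812 and 0.812 CPM in its cells left, so these 3 values rested on the 48 cells.

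Adamdec1, a metalloproteinase gene, had 58.7 CPM in KO_MI and 24.7 CPM in Het_MI and 0 UMIs in the classical monocytes of all libraries, where a count of 0 allows up to 2.53 to 4.29 CPM, and its log2 ratio was 1.25 (0.70 to 1.82). Ly6i, which is nearly identical to Ly6c1 and Ly6c2 so that its reads are uncertain, had 162 CPM in KO_MI, 55 CPM in Het_MI, 117 CPM in KO_sham and 128 CPM in Het_sham. Its log2 ratio was 1.56 (1.21 to 1.93), with Het_MI as the lowest library and KO_MI as the highest. Plaat3, a phospholipase gene, had 52.6 CPM in KO_MI and 19.9 CPM in Het_MI. Thbd (thrombomodulin) was named in the cells left alone, a choice made after values were seen, with 41.2 CPM in KO_MI and 87.7 CPM in Het_MI and a log2 ratio of -1.09 (-1.53 to -0.66).

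**Figure D4:**
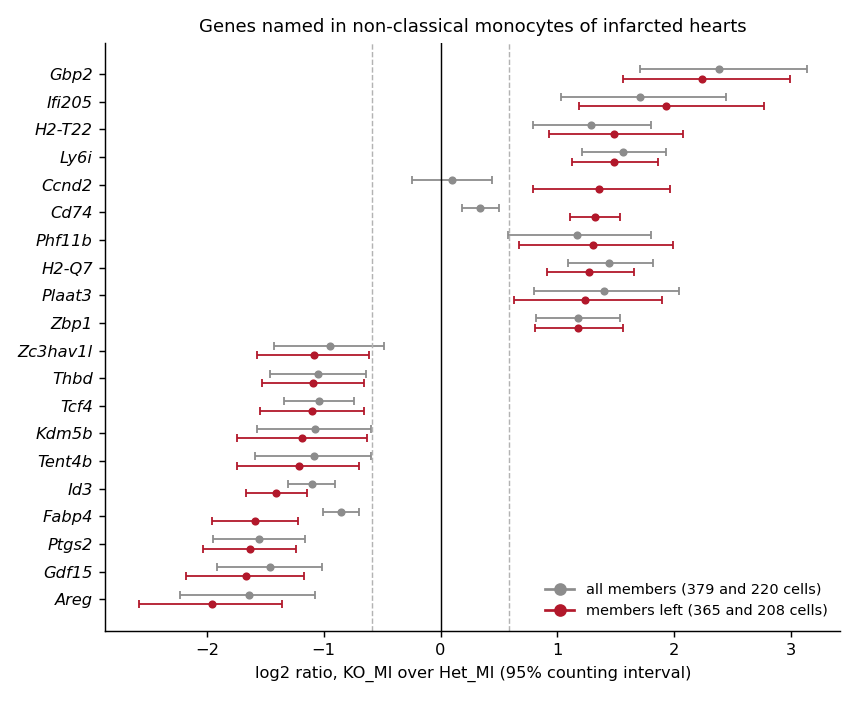
Log2 ratios of KO_MI over Het_MI with 95% counting intervals for the 10 highest and 10 lowest genes by the rule in the cells left (red), beside the values in all members (grey); dashed lines mark 1.5-fold. Gbp2 has the highest ratio (2.24 in the cells left) and Areg the lowest (-1.95), and Ccnd2 and Cd74 differ most between the 2 sets of cells.

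Het_MI over Het_sham shows what accompanied infarction in heterozygous hearts. After infarction 7 of 19 classical monocyte genes and Ptgs2 were higher, and Hspa1a and Hspa1b, the Notch target Hes1 and Marco were lower. Ly6c2 had 208 CPM in KO_MI, 153 CPM in Het_MI, 76.1 CPM in KO_sham and 64 CPM in Het_sham, so both infarcted libraries stood above both sham libraries, and the log2 ratio of Het_MI over Het_sham was 1.25 (0.98 to 1.53). Fn1 had 319 CPM in KO_MI, 537 CPM in Het_MI, 206 CPM in KO_sham and 183 CPM in Het_sham, with a log2 ratio of 1.55 (1.40 to 1.70). Ccr2 had 185 CPM in KO_MI, 199 CPM in Het_MI, 118 CPM in KO_sham and 131 CPM in Het_sham, with a log2 ratio of 0.60 (0.39 to 0.82). In the classical list 7 of 19 genes were at least 1.5-fold higher in Het_MI (Vcan, Fn1, Ly6c2, Thbs1, F13a1, Wfdc17 and Ccr2) and 1, Ly6i, lower, with a median of 0.16. Over all genes with at least 30 UMIs, 8.45% were higher by that much and 8.45% lower, with a median of -0.01.

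The classical list in the cells left gave 7 of 18 higher and 1 lower with a median of 0.35, where 5.22% of all genes were higher and 9.29% lower with a median of -0.02. Cd14, the co-receptor for bacterial lipopolysaccharide, had 506 CPM in KO_MI, 665 CPM in Het_MI, 459.7 CPM in KO_sham and 336 CPM in Het_sham, a log2 ratio of Het_MI over Het_sham of 0.98 (0.86 to 1.11). Ccr1, a chemokine receptor gene, had 62.4 CPM in KO_MI, 55.7 CPM in Het_MI, 28.9 CPM in KO_sham and 28.3 CPM in Het_sham and 0.98 (0.54 to 1.42). Thbs1 had 1025 CPM in KO_MI, 1494 CPM in Het_MI, 1121 CPM in KO_sham and 808 CPM in Het_sham, highest in Het_MI, and its log2 ratio was 0.89 (0.81 to 0.97). Over the cells with Xist and no Y-linked UMI, of which Het_MI had 30, the log2 ratio of Ccr1 was -0.25. In the cells left 3 of 7 measured neutrophil markers (S100a8, S100a9 and Mmp8) were higher in Het_MI too, with a list median of 0.45, and their part in the classical genes was not tested.

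Inflammatory genes were higher in Het_MI in part. Ptgs2 had a log2 ratio of Het_MI over Het_sham of 2.07 (1.70 to 2.45), Cxcl2, a neutrophil-attracting chemokine gene, had 1211 CPM in Het_MI and 716 CPM in Het_sham and a log2 ratio of 0.76 (0.67 to 0.85), and Il1b had 2791 CPM in Het_MI and 2093 CPM in Het_sham and 0.42 (0.36 to 0.47). Of the 26 genes of the inflammatory list 7 were at least 1.5-fold higher (Ptgs2, Il6, Cxcl1, Ccl2, Cxcl2, Nfkbiz and Tnfaip3) and 2 lower, with a median of 0.31, and in the cells left 8 were higher and 2 lower with a median of 0.38. In the same comparison the list's median was 0.61 in classical monocytes and 0.97 in macrophages, where the medians of all genes were -0.025 and -0.072. The growth and matrix list had 7 of 16 genes higher and 0 lower, with a median of 0.51, and in the cells left 5 of 14 higher and 1 lower with a median of 0.36.

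The inducible chaperone genes Hspa1a and Hspa1b were lower after infarction. Hspa1a had 139.9 CPM in KO_MI, 148 CPM in Het_MI, 302 CPM in KO_sham and 596 CPM in Het_sham, with a log2 ratio of Het_MI over Het_sham of -2.00 (-2.21 to -1.80). Hspa1b had 106 CPM in KO_MI, 124 CPM in Het_MI, 198 CPM in KO_sham and 435 CPM in Het_sham, with a log2 ratio of -1.81 (-2.04 to -1.59). The 2 genes are near copies, so their separate values are uncertain, but Het_sham was the highest library for both. Thinned to 2000 UMIs, Hspa1a was found in 18.6% of members in KO_MI, 19.4% in Het_MI, 25.9% in KO_sham and 39.4% in Het_sham. Of the 14 heat shock genes 4 were at least 1.5-fold lower in Het_MI and 0 higher, with a median of -0.11, and in the cells left 4 of 13 were lower (Hspa1a, Hspa1b, Hsp90aa1 and Hsph1) with a median of -0.21. Of 18 immediate early genes, which tissue digestion can induce, 2 were lower by 1.5-fold, Jun with 209.7 CPM in Het_MI and 441 CPM in Het_sham and Atf3 with 195 CPM in Het_MI and 417 CPM in Het_sham, and 2, Egr3 and Fosb, were higher. Without the 48 cells the same 2 of 17 were lower and 0 higher, with a median of -0.088. The part of tissue digestion in these differences was not tested.

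Hes1, a target of Notch signalling, had 74.2 CPM in KO_MI, 81.1 CPM in Het_MI, 127 CPM in KO_sham and 197 CPM in Het_sham, with a log2 ratio of Het_MI over Het_sham of -1.28 (-1.58 to -0.997). Klf2, a transcription factor of cells exposed to blood flow, had 139 CPM in KO_MI, 125 CPM in Het_MI, 179 CPM in KO_sham and 235 CPM in Het_sham, with a log2 ratio of -0.91 (-1.15 to -0.68). Both were lower in the infarcted libraries of either genotype. Marco, a scavenger receptor gene, had 21.1 CPM in KO_MI, 12.4 CPM in Het_MI, 14.6 CPM in KO_sham and 63.4 CPM in Het_sham, so that Het_sham alone was high, and its log2 ratio was -2.36 (-3.14 to -1.66). Of the 24 patrolling identity genes 5 were at least 1.5-fold lower in Het_MI (Hes1, Fabp4, Cd300e, Gngt2 and Cd300ld) and 0 higher, with a median of -0.24, while in the cells left 1 was lower and the median was -0.11. Among these genes Cd300e belongs to the rule. Interferon and class I lists did not show what they showed between the genotypes: 0 of 17 class I genes passed 1.5-fold in either direction, with a median of -0.10, and 3 of 15 interferon-gamma genes were higher and 2 lower with a median of 0.06. Over the cells left 0 of 17 class I genes were higher and 1 lower with a median of -0.014, and 1 of 13 interferon-gamma genes was higher and 1 lower with a median of 0.11.

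The rule for single genes found 36 higher and 19 lower genes, where 442 of 7053 genes with at least 50 UMIs (6.27%) were at least 1.5-fold higher and 452 (6.41%) lower. Among the 10 highest in all members were Eln, Col1a1, Col3a1, Dcn, Col1a2, Mgp, Postn, Fbln2 and H19, genes of fibroblasts and vessel walls. Col1a1, for one, had 101 CPM in Het_MI and 0.857 CPM in Het_sham in all members and 1.62 CPM in Het_MI and 0.925 CPM in Het_sham in the cells left. The 10 lowest were Ccl5, Marco, Hspa1a, Hspa1b, Rhob, Nes, Hes1, Fpr1, Rasgrp1 and Ly6i. The 10 highest in the cells left were Ptgs2, Stfa2l1, Fn1, Ly6c2, Plekhg2, Gdf15, Mefv, Cstdc4, Ccr1 and Cd14. Stfa2l1, a stefin gene of neutrophils, had 137 CPM in Het_MI and 42.3 CPM in Het_sham in all members, with 48.5% of its UMIs in Het_MI in 1 cell.

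KO_MI over KO_sham makes the same comparison in PD1 KO hearts, with control cells of its own. Most class I and interferon genes and 9 of 19 classical genes were higher in KO_MI, and Tnf, Gdf15 and the chemokine genes Ccl3 and Ccl4 were lower. In the class I list 11 of 18 genes were at least 1.5-fold higher and 0 lower, with a median log2 ratio of 0.71. In the type I interferon list 12 of 15 were higher and 0 lower (median 0.73), and in the interferon-gamma list 9 of 15 were higher and 0 lower (median 0.75). Over all genes with at least 30 UMIs, 8.44% were higher by that much and 8.69% lower, with a median of -0.06. Without the 48 cells the counts were 11 of 18, 10 of 14 and 10 of 15, with medians of 0.75, 0.77 and 0.80, where 5.43% of all genes were higher and 9.79% lower and the median was -0.09.

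Gbp2 had a log2 ratio of KO_MI over KO_sham of 1.65 (1.23 to 2.08), Ifi205 of 2.41 (1.79 to 3.06) and Ifi27l2a of 1.505 (1.40 to 1.61). H2-Q7 had 1.29 (1.02 to 1.55) and Zbp1 1.07 (0.80 to 1.34). Ms4a4c, a membrane protein gene, had 96.7 CPM in KO_MI, 48.1 CPM in Het_MI, 32.6 CPM in KO_sham and 40 CPM in Het_sham, with a log2 ratio of 1.57 (1.22 to 1.93). KO_MI held the highest level of each of these 6 genes. Over the cells that carry Xist but lack Y-linked UMIs (324 in KO_MI and 134 in KO_sham) the medians were 0.57 for the class I list, 1.13 for the type I list and 0.87 for the interferon-gamma list, with the same direction as over all members.

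In the classical list 9 of 19 genes were at least 1.5-fold higher in KO_MI and 0 lower, with a median of 0.48, and in the cells left 8 of 18 with a median of 0.49. The higher genes include Ifi27l2a, which is also interferon-stimulated. Among the cells left, 5 of 7 neutrophil markers were higher in KO_MI as well, with a list median of 1.18, and their part in the classical genes was not tested. The log2 ratio of KO_MI over KO_sham for Ly6c2 was 1.45 (1.22 to 1.69). The log2 ratio for Ccr2 was 0.65 (0.44 to 0.86). The higher Ly6c2 and Ccr2 levels were thus seen after infarction in both genotypes. Cd300e was lower in KO_MI than in KO_sham (-0.73 (-0.96 to -0.50)), and lower in Het_MI than in Het_sham (-0.69 (-0.96 to -0.43)), though it belongs to the rule and carries no independent weight.

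Tnf, the tumour necrosis factor gene, had 143 CPM in KO_MI, 201 CPM in Het_MI, 403 CPM in KO_sham and 221 CPM in Het_sham, so KO_sham was the highest library and KO_MI the lowest, and the log2 ratio of KO_MI over KO_sham was -1.497 (-1.68 to -1.31). The chemokine genes Ccl3 and Ccl4 had 212 CPM in KO_MI and 392 CPM in KO_sham and 290.2 CPM in KO_MI and 587 CPM in KO_sham, with log2 ratios of -0.88 (-1.04 to -0.73) and -1.02 (-1.15 to -0.88). Gdf15 had a log2 ratio of -1.65 (-2.06 to -1.26) and Rgs1, a regulator of G protein signalling, had 29.6 CPM in KO_MI, 24.7 CPM in Het_MI, 71.1 CPM in KO_sham and 40 CPM in Het_sham with -1.27 (-1.69 to -0.85). Of the 26 inflammatory genes 2 were at least 1.5-fold higher in KO_MI (the chemokine genes Ccl5 and Cxcl1) and 7 lower (Tnf, Ccl4, Nfkbiz, Ccl3, Tnfaip3, Il6 and Rel), with a median of -0.30, and in the cells left 0 of 25 were higher and 7 lower with a median of -0.31. Of the 18 immediate early genes 0 were higher and 3 lower, with a median of -0.38, and in the cells left 0 of 17 were higher and 7 lower (Jun, Fosb, Egr1, Nr4a1, Ier2, Atf3 and Maff), with a median of -0.44.

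The transcription factor list had 0 of 23 genes higher in KO_MI and 4 lower (Bcl6, Hes1, Id2 and Nr4a1), with a median of -0.27, and in the cells left 6 lower (Id3 and Klf2 besides) with a median of -0.24. Nr4a1 had a log2 ratio of KO_MI over KO_sham of -0.64 (-0.75 to -0.54) and Cd36 of -0.80 (-0.93 to -0.68). Zc3h12c, an RNase gene related to Regnase-1, had 16 CPM in KO_MI, 36.4 CPM in Het_MI, 52.8 CPM in KO_sham and 52 CPM in Het_sham, lowest in KO_MI. The survival list had 0 of 20 higher and 5 lower, among them the Bcl2a1 genes, which are near copies of each other and uncertain, and in the cells left 1 higher and 4 lower. By the rule for single genes 48 were higher and 30 lower, where 445 of 6844 genes with at least 50 UMIs (6.5%) were higher and 497 (7.26%) lower. The 5 highest in all members were Cav1, Cxcl12, Fbln2, Tm4sf1 and Cdh5, endothelial and stromal genes, and of these Cxcl12, Tm4sf1 and Cdh5 were below 0 on the log2 scale in the cells left. The 5 lowest were Camp, Zc3h12c, Gdf15, Tnf and Rgs1, and Camp again rested on 1 cell (97.6% of its UMIs in KO_sham).

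**Figure D5:**
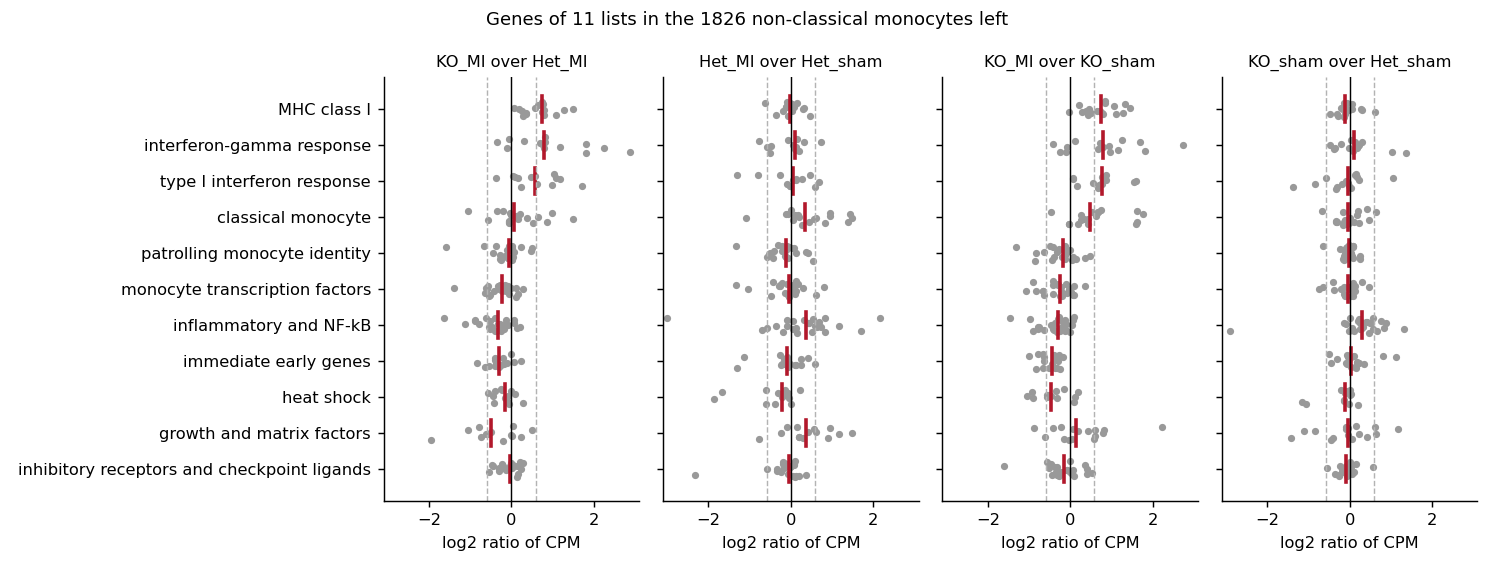
Log2 ratios of single genes (grey points) of 11 lists in the 1826 cells left, for the 4 comparisons, with the median of each list as a red bar and 1.5-fold as dashed lines. The medians of the class I and both interferon lists lie at 0.56 to 0.80 in the panels with KO_MI on top and between -0.12 and 0.11 in the other 2 panels.

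KO_sham over Het_sham compares the genotypes without infarction. Few class I and interferon-gamma genes passed 1.5-fold here, 4 of 15 type I interferon genes were lower in KO_sham, and 7 of 26 inflammatory and 5 of 7 class II genes were higher. In the class I list 1 of 17 genes was at least 1.5-fold higher and 0 lower (median -0.10), in the type I interferon list 0 of 15 were higher and 4 lower (median -0.30), and in the interferon-gamma list 2 of 17 were higher and 3 lower (median -0.08). Over all genes with at least 30 UMIs, 2.91% were that much higher and 8.57% lower, with a median of -0.05. Without the 48 cells 1 of 17 class I genes was higher and 0 lower, 1 of 15 type I genes higher and 3 lower (Phf11d, Oas1a and Rtp4) and 2 of 14 interferon-gamma genes higher and 0 lower, with medians of -0.12, -0.05 and 0.11, where 2.96% of all genes were higher and 5.33% lower.

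In the inflammatory list 7 of 26 genes were at least 1.5-fold higher in KO_sham (Il6, Tnf, Nfkbiz, Ptgs2, Ccl2, Tnfaip3 and Cxcl2) and 1 lower, with a median of 0.29; in the cells left 5 were higher and 1 lower, with the same median. The log2 ratio of KO_sham over Het_sham was 0.87 (0.73 to 0.998) for Tnf, 1.17 (0.88 to 1.46) for Gdf15 and 0.57 (0.52 to 0.61) for Il1b. Hspa1a and Hspa1b were lower in KO_sham, with log2 ratios of -0.98 (-1.10 to -0.87) and -1.13 (-1.27 to -0.995), and so was Marco (-2.12 (-2.62 to -1.64)). For these 3 genes Het_sham was the high library in every comparison it entered. H2-Ab1 had 90.6 CPM in KO_MI, 129.9 CPM in Het_MI, 181 CPM in KO_sham and 54.3 CPM in Het_sham, a log2 ratio of 1.74 (1.501 to 1.99), and 5 of 7 class II genes were higher in KO_sham with a median of 1.03, and in the cells left again 5 of 7 with a median of 1.01, values that rest on the few cells with many class II UMIs. Over the cells with Xist and no Y-linked UMI, the log2 ratio of KO_sham over Het_sham was 1.25 for Marco and the class II median was -0.35, both opposite in sign to the values over all members.

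The cell cycle list had 0 of 16 genes higher in KO_sham and 7 lower, with a median of -0.51, and in the cells left 8 lower with a median of -0.55, though most of its genes had few UMIs. Of the 24 patrolling identity genes 0 were higher and 2 lower (Fabp4 and Hes1), with a median of -0.01, and in the cells left 1 was lower with a median of -0.017. By the rule for single genes 11 were higher and 19 lower, where 145 of 7508 genes with at least 50 UMIs (1.93%) were higher and 431 (5.74%) lower. The 5 highest were Col1a1, Col3a1, Eln, Dcn and Col1a2 and the 5 lowest Rbp7, Ly6c1, Cav1, Mgll and Gpihbp1, which are fibroblast and endothelial genes. In the cells left 6 genes were higher and 3 lower, and these were led by H2-Aa, H2-Ab1, H2-Eb1, Gdf15 and Tnf above and by Marco, Hspa1b and Hspa1a below.

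Non-classical monocytes carried the PD-1 ligand gene Cd274 far above the other classes set beside them. It had 87.8 CPM in KO_MI, 118 CPM in Het_MI, 140.3 CPM in KO_sham and 151 CPM in Het_sham, against 1.43 to 5.07 CPM in classical monocytes and 3.16 to 9.72 CPM in macrophages. Both of those classes were limited to at most 1 UMI of the rule's genes. Thinned to 2000 UMIs, Cd274 was found in 16.8% of members in KO_MI, 24.9% in Het_MI, 23.4% in KO_sham and 26.0% in Het_sham, and in at most 1.18% of classical monocytes and 1.28% of macrophages. KO_MI was thus the lowest library. The log2 ratio was -0.42 (-0.73 to -0.11) for KO_MI over Het_MI, -0.36 (-0.62 to -0.11) for Het_MI over Het_sham, -0.68 (-0.93 to -0.42) for KO_MI over KO_sham and -0.10 (-0.29 to 0.083) for KO_sham over Het_sham. Within the population Cd274 stood at 150 CPM in the cells without Ly6c2, 94 CPM in those with 1 or 2 Ly6c2 UMIs and 36.7 CPM in those with 3 or more.

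Pdcd1lg2, the second ligand, was sparse and had 3.29 CPM in KO_MI, 3.44 CPM in Het_MI, 11 CPM in KO_sham and 15.1 CPM in Het_sham, lower in both infarcted libraries, with log2 ratios of -2.14 (-3.82 to -0.83) for Het_MI over Het_sham and -1.74 (-3.16 to -0.54) for KO_MI over KO_sham. Pdcd1 itself, the gene named in the genotypes, had 1 UMI in the members of KO_MI, 0 in Het_MI, 0 in KO_sham and 4 in Het_sham. These counts cannot check the genotype, because the deleted part of the gene is not stated and 3' reads may lie outside it.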

How the data were processed

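Single-cell RNA was measured with the 10x Genomics single cell 3' v3 protocol in 4 libraries of live, CD45-sorted cells from digested mouse hearts without atria, after lysis of red cells, per the labels' protocols. The authors deposited raw UMI counts, whole numbers without normalization, for 32285 genes in each barcode. The submitters' processing notes name Cell Ranger 6.1.1, Seurat 4 and the builds mm10 and GRCm38, while the matrix headers name Cell Ranger 4.0.0. The rule for cells, the gene lists and the members were chosen with earlier results of these data known.

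UMIs were summed over the non-classical monocytes of each library and divided by their total (CPM). A ratio of 2 libraries carries an exact conditional binomial interval, a share an exact Clopper-Pearson interval and a level a Poisson interval. Counts of genes use 1.5-fold with at least 50 UMIs over both libraries, and the 29 lists (543 genes, of which 5 are not in the files) use at least 30. Single genes were named from at least 100 UMIs, 50 CPM in the higher library, an interval wholly beyond 1.5-fold, 1.5-fold kept without the cell richest in the gene, and at least 25% of the level in other cells, leaving out mitochondrial, ribosomal, haemoglobin, sex-linked and receptor segment genes. With 1 library per group no test across samples could be made. Doublets were not called for the main values. Scrublet, tried as an alternative, would remove 2 members in KO_MI, 0 in Het_MI, 5 in KO_sham and 4 in Het_sham. Free RNA was not modelled. Some genes that the rule names are not reported here. The alternatives changed the limits on cells, the scaling (edgeR 4.0.16 TMM factors, DESeq2 1.42.0 median-of-ratios factors), the gene filters and the fold. The interval code was tested on simulated data. Scripts ran in Python 3.11.15 (NumPy 2.4.6, SciPy 1.17.1, pandas 2.3.3, Scanpy 1.11.5) and R 4.3.3.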

Additional observations from a re-analysis of the deposited data

Results flagged for a closer look

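For 11 of the named genes the comparison of infarction with sham surgery passed 1.5-fold in opposite directions in the 2 genotypes, and the difference between those 2 ratios was not tested, since each group is 1 library. Gbp2, the interferon-induced guanylate-binding protein, had a log2 ratio of 1.65 for KO_MI over KO_sham and -0.82 for Het_MI over Het_sham, and 1.68 and -0.57 in the 1826 cells left. Gdf15, the stress-induced cytokine, had -1.65 for KO_MI over KO_sham and 0.98 for Het_MI over Het_sham, and -1.88 and 1.17 in the cells left. These 2 genes had opposite directions in both sets of cells.

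The class II genes pointed the other way round in all members. H2-Aa had -0.98 for KO_MI over KO_sham and 1.06 for Het_MI over Het_sham, H2-Ab1 had -1.002 and 1.26, and H2-Eb1 had -0.73 and 0.68. In the cells left all 3 were below 0 in both comparisons, at -0.51 and -0.62 for H2-Aa. Fabp4, a fatty acid binding protein of capillary endothelium and macrophages, had 1.27 for KO_MI over KO_sham and -0.71 for Het_MI over Het_sham, and the signs were the reverse in the cells left, at -1.32 and 0.53.

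The remaining 5 are genes of other lineages. The lymphocyte genes Ccl5 and Gzma had 3.90 and 4.64 for KO_MI over KO_sham and -4.44 and -4.25 for Het_MI over Het_sham, where Gzma had 0 UMIs in Het_MI and its value is a bound at 3 UMIs. The endothelial genes Gpihbp1, Mgll and Rbp7 had 3.67, 5.14 and 4.98 for KO_MI over KO_sham and -1.002, -0.92 and -1.15 for Het_MI over Het_sham, where the first value for Rbp7 is a bound at 3 UMIs. Their values in all members move with the 48 cells that carry genes of other lineages.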

How the results depend on the processing

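No paired analysis was possible because each group is 1 library, and for the same reason no library could be left out. Counting error alone limits the intervals, and the differences between mice, sexes and sorts of the 4 libraries cannot be told apart from those between the groups. Genes under about 50 UMIs per pair of libraries carry wide intervals, and Het_MI, with 220 members, limits both comparisons it enters. Of the alternatives for the shares 53 stayed within the interval of the main value and 7 did not. Of those for single genes 1907 stayed within that interval, 305 moved and 26 reversed. Of those for list medians 1388 stayed, 35 moved and 5 reversed. For a list, the range ran from the median of its genes' lower bounds to the median of their upper bounds. That range is wide and is no interval of the list median, so a median that stayed in it may still have changed much.

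The median of the class I list for KO_MI over Het_MI lay between 0.39 and 0.78 under 17 alternatives, and for KO_MI over KO_sham between 0.57 and 0.76. The interferon-gamma median lay between 0.30 and 0.80 for KO_MI over Het_MI and between 0.60 and 0.92 for KO_MI over KO_sham. For the type I list these ranges were 0.077 to 0.62 and 0.58 to 1.13. The type I median for KO_MI over Het_MI, 0.53 in the main setting, thus came close to 0 at its lowest, though all 17 alternatives were counted as staying. Counted against members and classical monocytes, the ratio of shares was 0.957 for KO_MI over Het_MI, 0.865 for Het_MI over Het_sham, 0.82 for KO_MI over KO_sham and 1.01 for KO_sham over Het_sham. It was 0.304 for Het_MI over Het_sham with cells thinned to 2000 UMIs, 0.467 for KO_MI over KO_sham in members with no Ly6c2 UMI, and 0.692 for KO_sham over Het_sham in cells with Xist and no Y-linked UMI.

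Counts of higher genes, in the order KO_MI over Het_MI, Het_MI over Het_sham, KO_MI over KO_sham and KO_sham over Het_sham, were 48, 162, 172 and 30 at 2-fold, 478, 931, 955 and 342 with at least 20 UMIs and 34, 92, 102 and 30 with at least 200. Counts of lower genes were 113, 113, 69 and 170, 1118, 907, 883 and 1049 and 82, 106, 165 and 53 under the same settings, by their construction. Without the 48 cells, 251 genes were higher for Het_MI over Het_sham, 260 higher for KO_MI over KO_sham and 223 lower for KO_sham over Het_sham, and with the rule's genes at 6 or more per 10000 UMIs these counts were 261, 248 and 242. In cells with Xist and no Y-linked UMI, 777 were higher for KO_MI over Het_MI, 123 higher for Het_MI over Het_sham and 173 lower for KO_sham over Het_sham. With a mean over cells 233 were higher for KO_sham over Het_sham.

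Direction changed as follows on the log2 scale. Without the 48 cells, KO_MI over KO_sham was -0.73 for Cdh5, -1.41 for Cxcl12 and -0.41 for Tm4sf1, KO_sham over Het_sham was 0.17 for Cav1, -0.42 for Col1a1 and 1.17 for Gpihbp1, and Het_MI over Het_sham was -0.60 for H19 and -0.46 for the class II list. With the rule's genes at 6 or more per 10000, KO_MI over KO_sham was -0.99 for Cav1, -0.14 for Cdh5, -1.73 for Cxcl12 and -0.40 for Tm4sf1, KO_sham over Het_sham was 0.77 for Cav1 and 1.19 for Gpihbp1, and Het_MI over Het_sham was -0.77 for H19. In cells with Xist and no Y-linked UMI, Het_MI over Het_sham was 1.31 for Ccl5, -0.25 for Ccr1 and 0.14 for Cd300e, KO_sham over Het_sham was -1.48 for Dcn, -0.35 for the class II list and 1.25 for Marco, KO_MI over Het_MI was 1.75 for Fabp4 and 0.12 for Tcf4, and KO_MI over KO_sham was 0.030 for Id1. Without members that carry other cells' markers, Het_MI over Het_sham was 0.31 for Ccl5, -0.14 for Cstdc4 and -0.062 for the class II list. The class II list was -0.39 and -0.98 in that comparison with at least 2 and at least 5 UMIs of the rule's genes. KO_MI over Het_MI was 0.097 for H19 at no more than 5% mitochondrial UMIs, and KO_MI over KO_sham was 0.18 for Camp in members with no Ly6c2 UMI. The cause of these changes was not tested. The alternatives without the 48 cells and without Ly6c2 were chosen after seeing the data.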

Other observations

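Pecam1, the adhesion molecule CD31 that endothelial cells and patrolling monocytes carry, had 125 CPM in KO_MI, 62.5 CPM in Het_MI, 148 CPM in KO_sham and 127 CPM in Het_sham in the cells left, so Het_MI was the low library. Pparg, a nuclear receptor gene of lipid metabolism, had 62.4 CPM in KO_MI, 97.6 CPM in Het_MI, 116 CPM in KO_sham and 131 CPM in Het_sham in all members, against 3.66 to 10 CPM in classical monocytes, and its log2 ratio was -0.90 (-1.20 to -0.61) for KO_MI over KO_sham. Arg1 had 35.1 CPM in Het_MI, but 2 of its cells left held any UMI of it. Ccnd2, a D-type cyclin gene, had 66.7 CPM in KO_MI, 26 CPM in Het_MI, 108 CPM in KO_sham and 94 CPM in Het_sham in the cells left, where Het_MI was the lowest library. These genes were chosen after their values were seen.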
